A study of Mus musculus with 26 samples.

Results

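Among 26 RNA-seq libraries of sorted leukaemic LSK cells, the 9 with the highest content of mast cell protease transcripts (mast-high) were set against the 9 with the lowest (mast-low), which left 8 in between. The libraries were selected on measured values: each was ranked by a mast score, the mean of log2(CPM + 1) over Cma1, Tpsb2, Tpsab1, Mcpt4 and Cpa3, where CPM is a gene's counts scaled by the library's total counts. The classes are therefore not groups of the study, and the levels of these 5 genes in them are a description with no test. LSK cells are the lineage-negative, Sca-1-positive, c-Kit-positive fraction of bone marrow, which holds stem and multipotent progenitor cells. They came from C57BL/6 mice with SCLtTA/BCR-ABL, a transgenic model of chronic myeloid leukaemia (CML). All 26 libraries carry these transgenes. The groups differ in Spred1, whose protein sits at the cell membrane and holds back signalling from RAS to ERK. The global KO group had 6 libraries with Spred1 deleted in all cells, and the Spred1 wt group had 5. The HSC KO and HSC wt groups had 5 libraries each, from mice in which Mx1-cre, active in blood-forming cells and other interferon-responsive tissues, was induced with 7 intraperitoneal doses of 250 µg poly(I:C), 1 every 2 days. The EC KO group had 5 libraries from mice with the deletion in endothelial cells, whose Cre driver is not given in the sources used here, and EC wt was not analysed here. Whether each library is 1 animal is not stated, so p-values describe how far libraries spread, which may be technical in part. Kit, at 333 to 1199 CPM, and Ly6a, which codes for Sca-1, at 41.7 to 85.6 CPM, were present in all 18 classed libraries.

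Mast cells are tissue-resident granulocytes that arise from bone marrow progenitors and depend on KIT, the receptor that is also 1 of the sort markers of LSK cells. Their granules hold proteases (chymases, tryptases and carboxypeptidase A3) bound to heparin, with histamine and serotonin, and cross-linking of the IgE receptor releases them. Basophils share the IgE receptor, histamine synthesis and Il4 with mast cells but carry their own proteases, Mcpt8 and Prss34.

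The 5 genes of the score code for granule proteases of connective tissue mast cells. In the deposited coordinates (build mm10), Cma1, a chymase, lies at chr14:55941451-55944675 and Mcpt4, another chymase, at chr14:56059744-56062310. The tryptase genes Tpsab1 and Tpsb2 lie close together at chr17:25343245-25345562 and chr17:25366333-25368092, and Cpa3, carboxypeptidase A3, lies at chr3:20215616-20242181. Tpsb2 and Tpsab1 are near-identical copies, so the division of reads between them is uncertain. The 250 bases before the start of 3 of the 5 genes, those found in the RefSeq table of promoters (GRCm38.p6, minus strand, printed 5′ to 3′), are shown because the score rests on these genes. Capitals mark matches to the letters that GATA factors such as GATA2 bind, GATA with an A or a T before it and an A or a G after it, searched on both strands. No match overlaps another.
Cma1 (chr14:55944676-55944925): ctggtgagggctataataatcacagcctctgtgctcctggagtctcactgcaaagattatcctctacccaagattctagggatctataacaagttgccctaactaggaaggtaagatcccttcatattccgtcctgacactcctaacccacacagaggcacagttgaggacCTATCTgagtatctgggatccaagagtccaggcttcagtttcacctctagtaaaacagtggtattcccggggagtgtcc
Mcpt4 (chr14:56062311-56062560): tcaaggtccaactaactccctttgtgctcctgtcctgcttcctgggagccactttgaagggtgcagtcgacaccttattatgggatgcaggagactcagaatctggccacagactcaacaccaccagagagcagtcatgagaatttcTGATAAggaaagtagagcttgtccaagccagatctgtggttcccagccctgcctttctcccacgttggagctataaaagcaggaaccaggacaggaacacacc
Cpa3 (chr3:20242182-20242431): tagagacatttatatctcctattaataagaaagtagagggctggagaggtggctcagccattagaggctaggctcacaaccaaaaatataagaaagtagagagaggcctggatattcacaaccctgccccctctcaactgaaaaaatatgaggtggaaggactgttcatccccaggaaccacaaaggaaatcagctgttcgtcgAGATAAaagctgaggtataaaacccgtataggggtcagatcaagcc
Each of the 3 stretches holds 1 match. It starts at position -79 in Cma1 (AGATAG on the opposite strand), at -103 in Mcpt4 (TGATAA) and at -46 in Cpa3 (AGATAA), counted back from the start of the gene. Of all 32851 promoters in the table, 26.5% hold at least 1 such match in the same window. A match is a description of letters and not a bound site.

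The mast score spanned a wide range. The mast-high libraries were Spred1 wt 3 at 10.52, HSC KO 2 at 10.07, global KO 2 at 10.04, Spred1 wt 5 at 9.71, Spred1 wt 4 at 9.59, HSC wt 2 and HSC wt 4 both at 9.05, HSC KO 3 at 8.56 and EC KO 2 at 8.46. The mast-low libraries were HSC KO 5 at 7.62, global KO 4 at 7.51, global KO 6 at 7.26, global KO 1 at 6.34, global KO 3 at 5.95, HSC KO 1 at 3.64, EC KO 3 at 3.44, EC KO 5 at 3.09 and EC KO 4 at 2.93. The last 4 libraries stand apart, with a gap from 3.64 to 5.95, and results are therefore also given without them. The borders of the classes fall where neighbours are close: the lowest score inside mast-high was 8.46 and the highest outside it 8.43 (HSC wt 3), and the highest inside mast-low was 7.62 and the lowest outside it 7.67 (global KO 5).

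**Figure D1:**
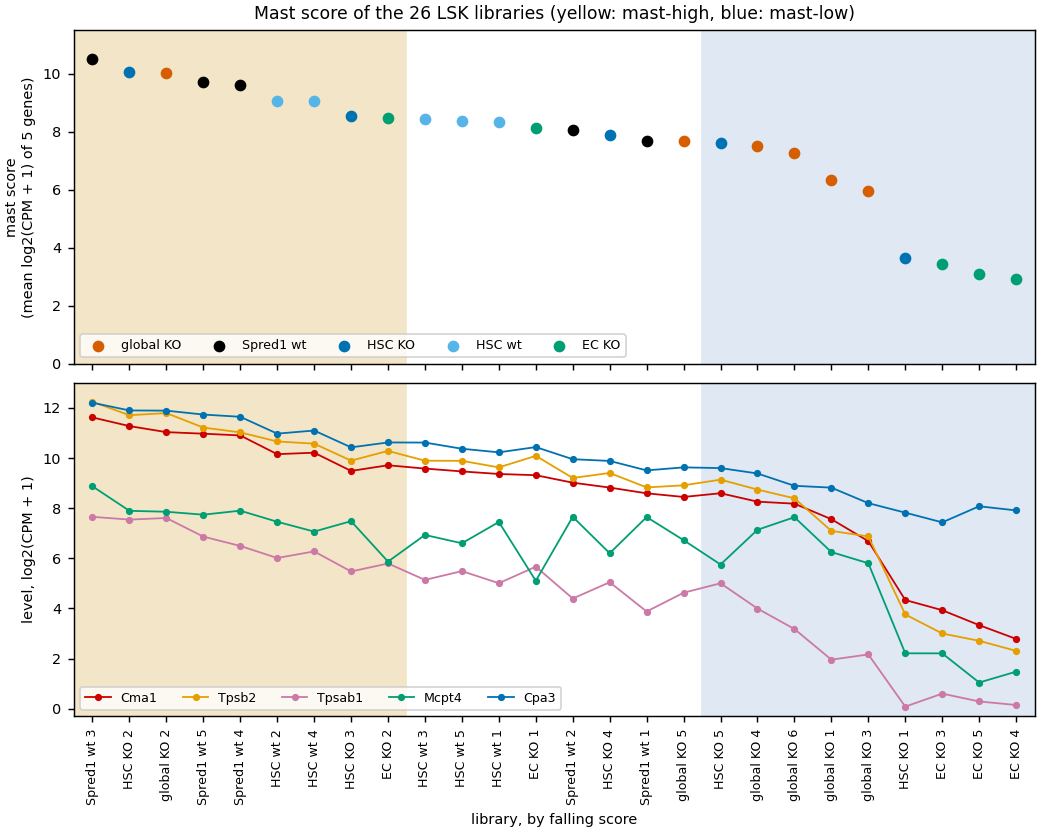
Mast score (upper panel) and log2(CPM + 1) of its 5 genes (lower panel) in each of the 26 libraries, ordered by falling score, with points coloured by study group in the upper panel. The score falls from 10.52 to 2.93, the 4 libraries at the right lie apart from the rest, and in them Cpa3 is at 172 CPM or more, Cma1 and Tpsb2 are at 3.95 to 19.2 CPM, Mcpt4 is at 1.06 to 3.63 CPM and Tpsab1 is at 0.0595 to 0.517 CPM.

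The classes were unevenly spread over the study's groups. No wild-type library was mast-low: of Spred1 wt, 3 were mast-high and 2 in between (scores 7.69 to 10.52, median 9.59), and of HSC wt, 2 were mast-high and 3 in between (8.34 to 9.05, median 8.43). In HSC KO, 2 libraries were mast-high and 2 mast-low (3.64 to 10.07, median 7.87), in global KO 1 and 4 (5.95 to 10.04, median 7.38), and in EC KO 1 and 3 (2.93 to 8.46, median 3.44). With the study group in the model, the contrast of the classes therefore rests on the 13 classed libraries of the 3 knockout groups, 4 mast-high and 9 mast-low. The 5 classed wild-type libraries add to the expression filter, the normalization and the estimate of spread. The genes called were therefore not chosen independently of them. In the 10 wild-type libraries the slope of each gene on the score was fitted separately, a step chosen after seeing the data. Leaving out the 4 libraries of lowest score removes every mast-low library of EC KO. That fit rests on HSC KO and global KO alone, with HSC KO 5 as the only mast-low library of HSC KO. Whether calls lost in that fit come from the smaller number of libraries was not tested. Total counts lay between 15334305 and 21693709 in mast-high libraries, between 14816071 and 26714325 in those in between and between 16010404 and 22573113 in mast-low. Xist reached 500 CPM, as in female animals, in 2 of 9 mast-high libraries (HSC wt 4, EC KO 2) and 2 of 9 mast-low libraries (HSC KO 5, HSC KO 1). In HSC KO both mast-low libraries were of this kind and the mast-high ones not, and in EC KO the reverse held, so that within these 2 groups sex and class cannot be told apart, and a fit with sex as a covariate is given in the closing section.

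The proteases fell by different amounts. Cma1 had a lowest, median and highest level of 717, 1915 and 3151 CPM in mast-high libraries and of 5.90, 101.9 and 386 CPM in mast-low ones. Tpsb2 ran from 954 over 2084 to 4863 CPM in mast-high libraries and from 3.95 over 116 to 563 CPM in mast-low ones, and Tpsab1 from 43.5 over 89.2 to 200.7 CPM and from 0.0595 over 2.88 to 31.1 CPM. The classes did not overlap in these 3 genes. Cpa3 also did not overlap, at 1377, 3208 and 4731 CPM against 172, 294 and 776 CPM, but its 4 lowest libraries still held 172 to 269 CPM. Mcpt4 overlapped, at 57.5, 213 and 468 CPM against 1.06, 53 and 199 CPM. The high value of mast-low belonged to global KO 6 and the low value of mast-high to EC KO 2. Within study groups the log2 differences were 4.31 for Cma1, 4.96 for Tpsb2, 4.51 for Tpsab1, 3.02 for Mcpt4 and 2.75 for Cpa3. The 5 genes took 0.327% to 1.34% of all counts in mast-high libraries and 0.0198% to 0.181% in mast-low ones. In such bulk samples a lower number of cells of a type and less RNA per cell cannot be told apart.

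Outside the 5 score genes, 12775 genes were tested with edgeR's quasi-likelihood test and the study group as covariate. In mast-high libraries 328 genes (2.57% of those tested) were higher and 36 (0.282%) lower at a Benjamini-Hochberg adjusted p under 0.05, and 1855 had an unadjusted p under 0.05. The median log2 difference over all tested genes was 0.002. Of the 328 higher genes, 217 differed at least 2-fold and 104 at least 4-fold. No overlap between the 9 mast-high and 9 mast-low libraries was seen for 134 of them, against 1.11% of all tested genes in either direction. That share, 137 higher and 5 lower genes, is mostly made up of these 134. The expression filter works by class, so these counts include genes near 0 CPM in mast-low libraries that entered through the mast-high libraries alone. Overlap and the lowest, median and highest levels of a class, here and elsewhere, take no account of the study group. No mast-low library was wild-type, so they can also carry differences between groups. For 327 of the 328, the median of the 8 libraries in between lay between the medians of the 2 classes. Without the group covariate 605 genes (4.74%) were higher and 501 (3.92%) lower, among them 321 of the 328 and 31 of the 36. Without the 4 lowest libraries 206 of 12977 genes (1.59%) were higher and 1 (0.00771%) lower. Of the 328, 170 were called again and all had the same sign, whereas of the 36 none was called again and all had the same sign. Leaving out global KO 2, the only mast-high library of its group, left 81 higher genes, and leaving out any other single library left between 225 and 478. Of 52 higher genes named below and followed through every alternative, 33 were not called without global KO 2. In contrast, 14 were called under every alternative: Tpsg1, Il1rl1, Adora3, Ddc, Maob, Ccl2, Ptprg, Igfbp5, Cacnb4, Nrip3, Cobl, Anpep, Kcne3 and Slc45a3. The alternatives reuse the same libraries, and most of them the same split. Tpsg1, Il1rl1, Adora3, Ddc, Maob and Ccl2 are mast cell genes of the lists below, so their calls describe the classes and support nothing. Ptprg, Cacnb4, Ddc, Nrip3 and Igfbp5 averaged only 0.315, 0.247, 0.559, 0.723 and 0.888 CPM in mast-low libraries.

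**Figure D2:**
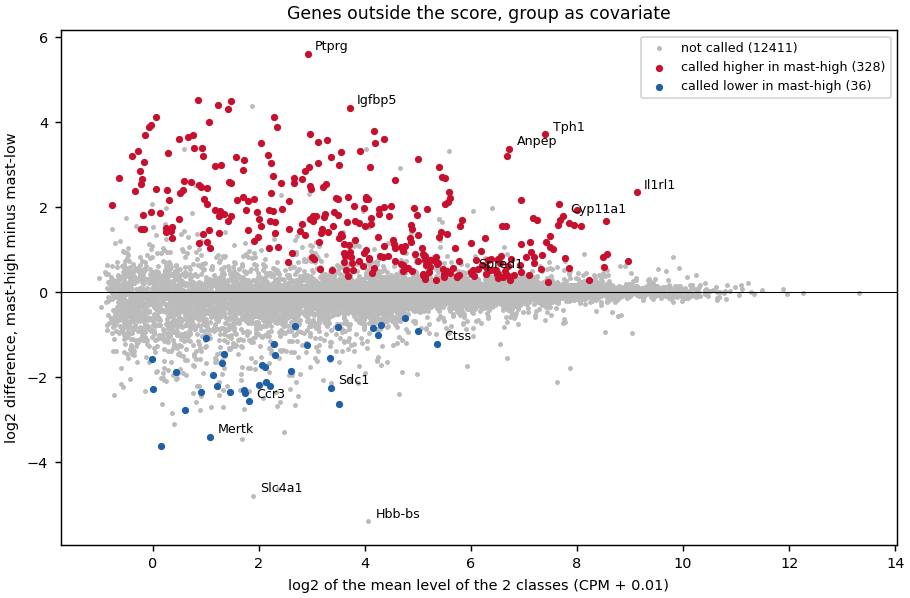
Log2 difference of each tested gene outside the score (mast-high minus mast-low, study group as covariate) against the log2 mean level of both classes, with called genes in colour. The 328 higher genes reach a log2 difference of 5.62 at Ptprg, while Hbb-bs and Slc4a1, the lowest points, were not called.

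The wild-type libraries, none of them mast-low, were fitted by a slope on the continuous score. In the 10 wild-type libraries, with Spred1 wt and HSC wt as covariate, 246 of the 328 genes had a called positive slope on the score and 327 a positive slope, against 48.7% positive slopes over all 12860 genes fitted. The exception, Pak6, had a slope of -0.10 (adjusted p = 0.619), and none had a called negative slope. Over all genes the slope was called positive for 429 (3.34%) and negative for 263 (2.05%). Of the 36 lower genes, 34 could be fitted, all 34 slopes were negative and 15 were called, against 51.3% negative slopes over all genes. These counts leaned on single libraries: over all genes there were 151 positive and 12 negative calls when Spred1 wt 1 was left out, 227 and 83 when Spred1 wt 2 was, 260 and 118 when Spred1 wt 3 was, and 366 and 165 when HSC wt 4 was.

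**Figure D3:**
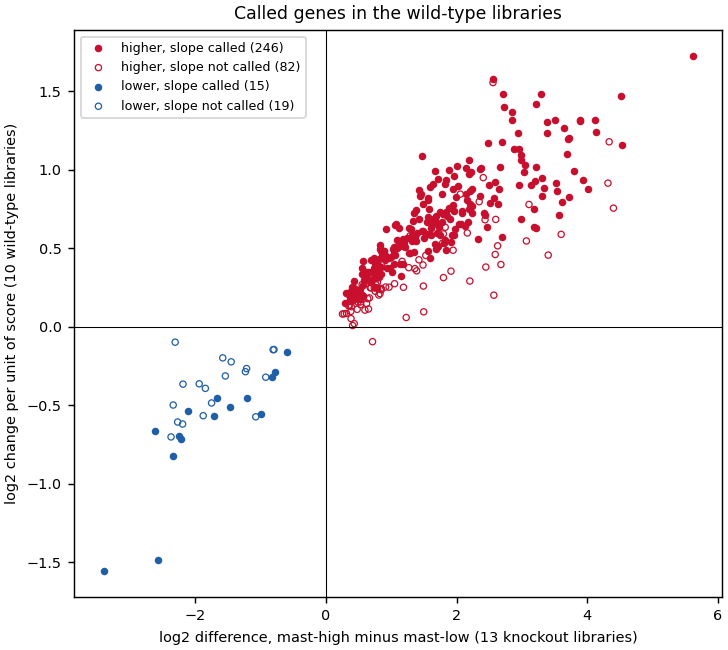
Slope of each called gene on the mast score in the 10 wild-type libraries (log2 per unit of score) against its log2 difference between classes, which rests on the 13 knockout libraries. Filled points mark genes whose slope was called, 246 of the higher and 15 of the lower genes, and 1 higher gene lies below 0.

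The higher genes held 25 members of the lists of mast cell genes other than the score. Since the score picks libraries by mast cell transcripts, their counts describe the classes and support nothing. Among proteases outside the score, 3 of 7 tested members were higher. Tpsg1, the transmembrane tryptase, had a median of 31.5 CPM in mast-high and 2.10 CPM in mast-low libraries with no overlap, a log2 difference of 3.33 (SE 0.53, adjusted p = 0.00217). Gzmb, granzyme B, had a median of 187 CPM against 47.5 CPM, and Cma2, a chymase, 2.09 CPM against 0.276 CPM. Mcpt1 and Mcpt2, the mucosal-type proteases, did not pass, with log2 differences of 0.81 (adjusted p = 0.844) and 1.42 (adjusted p = 0.620).

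Among receptors and signalling genes of mast cells, of 18 tested members 8 were higher and 0 lower, with a median log2 difference of 1.15. Il1rl1, the IL-33 receptor, had its lowest, median and highest level at 520, 1044 and 1237 CPM in mast-high and at 62.1, 139 and 413 CPM in mast-low libraries, with no overlap and a log2 difference of 2.35 (SE 0.35, adjusted p = 0.00146). Fcer1a, the IgE-binding chain of the IgE receptor, had 209, 402 and 663 CPM against 55.7, 93.9 and 183 CPM, a log2 difference of 1.94 (SE 0.32, adjusted p = 0.00286) that did not pass without the 4 lowest libraries (1.78, adjusted p = 0.0923) or without global KO 2. Ms4a2, the beta chain of the same receptor, had 113, 173 and 286 CPM against 53, 126 and 256 CPM, which overlap, and a log2 difference of 0.63 (adjusted p = 0.379). Its mast-low libraries were not uniform: HSC KO 1, EC KO 3, EC KO 5 and EC KO 4, the 4 of lowest score, had 152, 138, 256 and 207 CPM, and HSC KO 5 and the 4 global KO libraries 53 to 126 CPM. Without these 4 libraries its log2 difference was 1.22 (adjusted p = 0.0706). Fcer1g, the signalling chain shared with other Fc receptors, overlapped as well (log2 difference 0.48, adjusted p = 0.258), and so did Kit (0.50, adjusted p = 0.0994). Rab27b, a GTPase of granule release, Adora3, the adenosine A3 receptor, and Cd200r3, an activating receptor of mast cells and basophils, were higher by 1.70, 2.14 and 1.55, each with no overlap.

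Of 12 tested genes of mediator synthesis 7 were higher and 0 lower, with a median log2 difference of 1.21. Tph1, the first enzyme of serotonin synthesis, had 135, 319 and 467 CPM in mast-high and 1.49, 25.5 and 108 CPM in mast-low libraries with no overlap (log2 difference 3.72, SE 0.67, adjusted p = 0.00596, not called without global KO 2). In the knockout libraries Tph1 was at 401 CPM in HSC KO 2 and 143 CPM in HSC KO 3 against 108 CPM in HSC KO 5 and 1.49 CPM in HSC KO 1, at 467 CPM in global KO 2 against 25.5 to 55.2 CPM in the 4 mast-low libraries of that group, and at 135 CPM in EC KO 2 against 2.08 to 5.31 CPM. The mast-high library or libraries led in each of the 3 groups. Ddc, which makes serotonin from the product of Tph1, was higher by 4.11 (adjusted p = 0.000256), Maob, which degrades amines, by 3.31 and Slc6a4, the serotonin transporter, by 2.96 (adjusted p = 0.00246; without the 4 lowest libraries adjusted p = 0.112). Slc18a2, the vesicular amine transporter, was higher by 1.02. Hdc, histidine decarboxylase, which makes histamine and is also used by basophils, had 317, 571 and 962 CPM against 74.1, 196 and 318 CPM, with an overlap only of HSC KO 3 and HSC KO 5, and a log2 difference of 1.67 (SE 0.39, adjusted p = 0.0310) that did not pass without the 4 lowest libraries (adjusted p = 0.149) nor without any 1 of HSC KO 1, HSC KO 2, EC KO 5, global KO 2 and global KO 3.

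Heparin, the polysaccharide that binds the granule proteases, is made from a heparan sulfate backbone. Of 18 tested genes of heparan and chondroitin sulfate synthesis 5 were higher and 0 lower (median log2 difference 0.17). Ndst2, the sulfotransferase that heparin of mast cells requires and a member of the mediator list too, had 117, 208 and 253 CPM in mast-high and 43.5, 77.2 and 114 CPM in mast-low libraries, with no overlap (log2 difference 1.18, adjusted p = 0.000890). Ext1, a chain polymerase, was higher by 0.74 (adjusted p = 0.00147), Hs3st1, a 3-O-sulfotransferase, by 1.35 (adjusted p = 0.00438), and Xylt1 and Chst11, for chain initiation and chondroitin sulfation, by 0.49 and 0.43. Papss2, which makes the sulfate donor, was higher by 1.28 (adjusted p = 0.00131). Hs3st1, Xylt1 and Chst11 did not pass without the 4 lowest libraries (adjusted p = 0.189, 0.311 and 0.140), while Ndst2 (adjusted p = 0.0155), Ext1 (0.0265) and Papss2 (0.0139) did. Outside the lists, and named after their values were seen, Ids, the lysosomal iduronate sulfatase, was higher by 0.98 and Glb1, the lysosomal beta-galactosidase, by 0.83, neither of which passed without the 4 lowest libraries (adjusted p = 0.0877 and 0.248). Of the 16 genes of the autophagy and lysosome list, 2 were higher, Ctsd, cathepsin D, by 0.74 (adjusted p = 0.0398) and Sqstm1, an autophagy receptor, by 0.55 (adjusted p = 0.0163), with a median over the list of 0.02. Without the 4 lowest libraries neither passed (adjusted p = 0.386 and 0.0958). The Ctsd call was also lost on leaving out any 1 of 11 libraries, and that of Sqstm1 on leaving out HSC KO 1, HSC KO 2 or global KO 2.

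Of 13 eicosanoid genes 3 were higher and 0 lower (median 0.21), against 2.57% higher over all tested genes. Alox5 and Hpgds, 2 of these 3, are members of the mediator list too and were counted there. Alox5, which starts leukotriene synthesis, had 150, 225 and 404 CPM in mast-high and 57.0, 118 and 135 CPM in mast-low libraries with no overlap (log2 difference 1.33, adjusted p = 0.0255). It did not pass without the 4 lowest libraries (adjusted p = 0.0865) nor without any 1 of HSC KO 1, HSC KO 2 and global KO 2. Hpgds, which makes prostaglandin D2, was higher by 1.23 (adjusted p = 0.0205) in the knockout groups, but its slope in the wild-type libraries was 0.06 (adjusted p = 0.812). Ptger3, a prostaglandin E2 receptor, was higher by 0.70 with no overlap (adjusted p = 0.00438). Of 11 cytokine genes 4 were higher (median 1.07): Ccl2, a monocyte chemokine, by 3.61 (adjusted p = 0.00302), Lif by 2.02, Il13 by 1.48 (adjusted p = 0.0370) and Il4 by 1.07 (adjusted p = 0.0233). Il13 and Il4 were low, with medians of 4.39 and 6.38 CPM in mast-high libraries, and neither passed without the 4 lowest.

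Of 12 regulators of mast cells and basophils 3 were higher (median 0.21). Mitf, which drives mast cell granule genes, had 28.8, 38 and 61.7 CPM in mast-high and 7.52, 16.4 and 24.2 CPM in mast-low libraries with no overlap (log2 difference 1.59, SE 0.18, adjusted p = 0.000256). Bhlhe40 was higher by 1.37 (adjusted p = 0.00459). Gata2, which LSK cells express as well, was higher by 0.60 (adjusted p = 0.0457), a call that leaving out 1 library removed for 11 of the 18 libraries. Among granulocyte-monocyte regulators 2 of 11 were higher, Csf2rb2 by 1.62 and Csf2rb by 0.90, the beta chains of the receptors for IL-3, IL-5 and GM-CSF. Without the 4 lowest libraries Csf2rb2 passed (adjusted p = 0.0190) and Csf2rb did not (adjusted p = 0.0863).

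Of 8 tested basophil markers 4 were higher and 0 lower, and these were Fcer1a, Cd200r3 and Il4, which mast cells share, and Itga2b. The basophil proteases did not pass: Mcpt8 had 76.0, 262 and 596 CPM in mast-high and 123, 478 and 963 CPM in mast-low libraries (log2 difference -0.46, adjusted p = 0.789), and Prss34 had 39.1, 278 and 599 CPM against 179, 624 and 1551 CPM (-0.95, adjusted p = 0.605). The classes overlap in both genes. In the 4 libraries of lowest score Mcpt8 was at 391 to 963 CPM and Prss34 at 547 to 1551 CPM. In HSC KO 2, with a score of 10.07, they were at 76.0 and 39.1 CPM. In global KO 2, with a nearly equal score of 10.04, they were at 596 and 599 CPM, the highest values of the mast-high libraries.

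**Figure D4:**
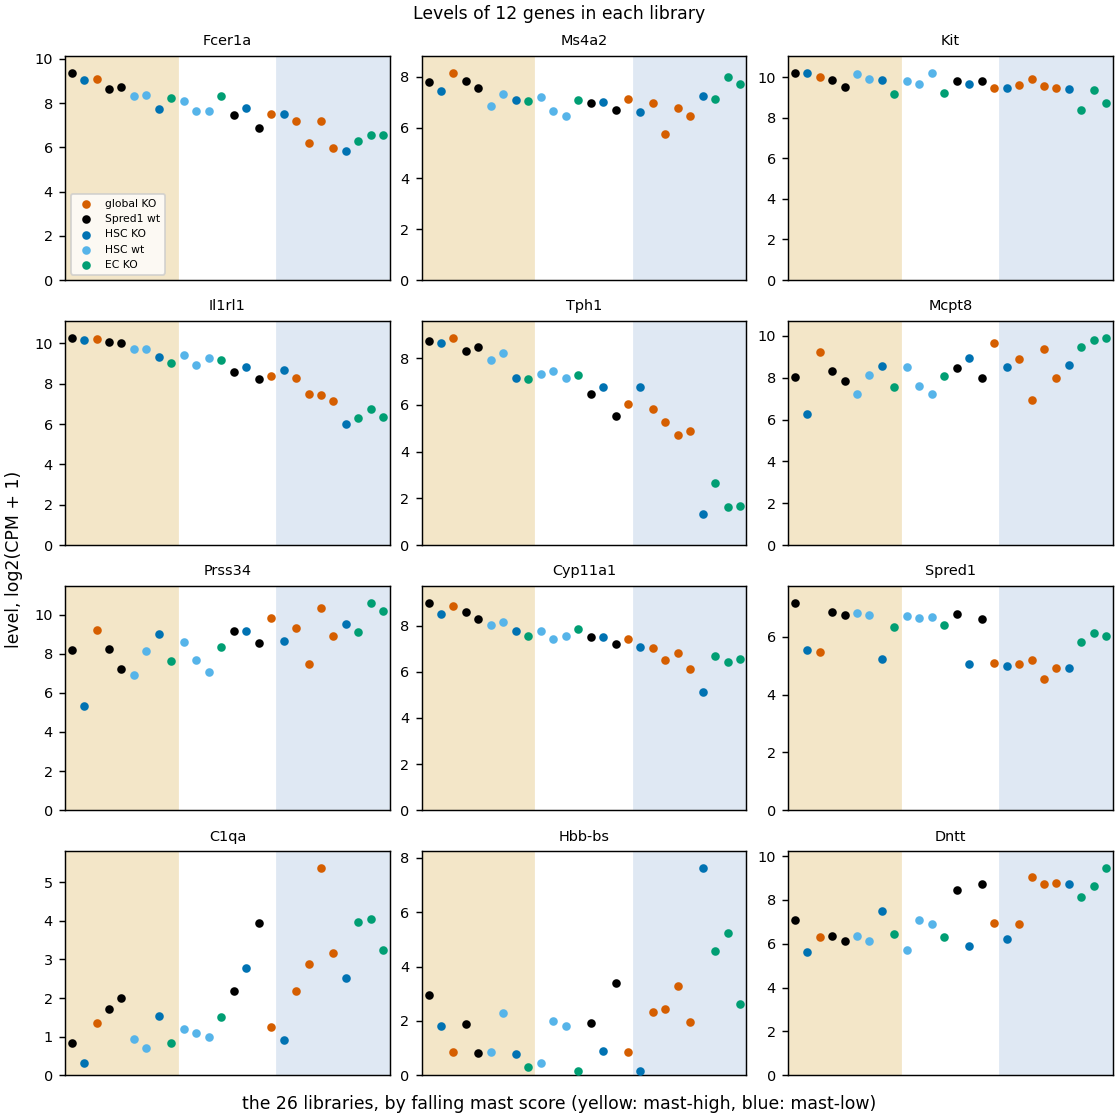
Levels, as log2(CPM + 1), of 12 genes in each of the 26 libraries, ordered by falling mast score and coloured by study group. Il1rl1, Tph1 and Cyp11a1 fall with the score, Ms4a2 and Mcpt8 are at 138 CPM or more in the 4 libraries at the right, and Spred1 is lower in every knockout library than in any wild-type library.

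Beyond the lists, the largest rise belonged to Ptprg, a receptor tyrosine phosphatase at chr14:11553553-12242039. Its level was 22.6 CPM in HSC KO 2 and 1.43 CPM in HSC KO 3 against 0.596 CPM in HSC KO 5 and 0.178 CPM in HSC KO 1. It was 32.0 CPM in global KO 2 against 0.258 to 0.562 CPM in the mast-low libraries of that group, and 4.79 CPM in EC KO 2 against 0 to 0.325 CPM. Every mast-high library lay above every mast-low one. Ptprg averaged 0.315 CPM in mast-low libraries, and the expression filter, which works by class, kept it through the mast-high ones. Its lack of overlap and its p are therefore a description only. The log2 difference was 5.62 (SE 0.58, adjusted p = 0.000256), 5.72 without the 4 lowest libraries (adjusted p = 0.0129), and the wild-type slope 1.72 (adjusted p = 0.0170). Igfbp5, which binds insulin-like growth factors, had 3.281, 26.1 and 56.5 CPM in mast-high and 0.119, 0.735 and 2.68 CPM in mast-low libraries with no overlap (log2 difference 4.33, SE 0.52, adjusted p = 0.000455), and its wild-type slope of 1.18 did not pass (adjusted p = 0.0554). Cacnb4, a calcium channel subunit, was higher by 4.32 with the smallest p of all genes (adjusted p = 0.000254), though at a median of 6.00 CPM in mast-high libraries. It averaged 0.247 CPM in mast-low libraries, so the same limit of the filter holds for it. Its wild-type slope of 0.91 did not pass either (adjusted p = 0.0533).

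Anpep, aminopeptidase N (CD13), was the most abundant of this set: 76.9, 176 and 386 CPM in mast-high and 8.38, 15.1 and 49.0 CPM in mast-low libraries, with no overlap, a log2 difference of 3.38 (SE 0.40, adjusted p = 0.000476) and a wild-type slope of 1.23 (adjusted p = 1.27e-05). Cobl, an actin nucleator, was higher by 3.79, Nrip3 by 3.89, Arhgap20 by 3.57 and Cadm3, a cell adhesion molecule, by 3.51 (without the 4 lowest libraries adjusted p = 0.0856). The endogenous retroviral gene Erv3 was higher by 3.73. Kcne3, a potassium channel subunit, and Slc45a3, a transporter, were higher by 2.21 and 2.13, each with no overlap and called without the 4 lowest libraries (adjusted p = 0.0124 for both). Further genes of very small p were Tmtc2 (1.56), Cyp4a12a (4.40), Grin2c (4.53), Mmp27 (2.99), Gm15663 (1.86) and Cpb1 (4.13), all with no overlap between the classes and with medians under 16 CPM in mast-high libraries. Cyp4a12a, Grin2c and Cpb1 averaged 0.215, 0.133 and 0.0865 CPM in mast-low libraries. The expression filter, which works by class, kept them through the mast-high libraries, so their lack of overlap is a description only.

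Cyp11a1, the enzyme that opens steroid synthesis from cholesterol, was higher at 186, 309 and 508 CPM in mast-high against 34.3, 92.8 and 133 CPM in mast-low libraries, with no overlap (log2 difference 1.78, SE 0.30, adjusted p = 0.00309; without the 4 lowest adjusted p = 0.0155). Of 16 cholesterol synthesis genes none was called, with a median of 0.08. Socs2, an inhibitor of cytokine signalling, was higher by 1.96 (adjusted p = 0.00148). Slc2a1 and Slc2a3, the glucose transporters, were the 2 higher members of 15 glycolysis genes, by 0.48 each (median 0.23), and neither passed without the 4 lowest libraries (adjusted p = 0.216 and 0.0828).

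Spred1 itself was measured in every library. It was at 97.3 to 143 CPM in Spred1 wt, 100.1 to 112 CPM in HSC wt, 22.2 to 42.9 CPM in global KO, 29.4 to 45.5 CPM in HSC KO and 56.1 to 83.2 CPM in EC KO, so that every library labelled knockout lay below every wild-type library. Within the groups Spred1 (chr2:117121071-117182277) was higher in mast-high libraries by 0.49 (SE 0.11, adjusted p = 0.0241). In HSC KO it was at 45.5 and 36.5 CPM in the mast-high libraries against 30.5 and 29.4 CPM, in global KO at 42.9 CPM against 22.2 to 35.8 CPM, and in EC KO at 79.2 CPM against 56.1 to 69.6 CPM. The mast-high libraries led in each group. In the wild-type libraries the slope was 0.18 per unit of score (adjusted p = 0.0257). The call did not hold without the 4 lowest libraries (0.51, adjusted p = 0.212) nor without any 1 of HSC KO 1, HSC KO 2, EC KO 2 and global KO 2. Of 17 genes of ERK output, 2 were higher, Spred1 and Phlda1, a target of ERK signalling (log2 difference 2.19, adjusted p = 0.00136), and 0 lower, with a median of 0.13. Spred1 is the gene deleted in the knockout groups on which the contrast rests, so its call cannot be read as ERK output. Of 19 immediate early genes 2 were higher, Egr2 by 1.21 (adjusted p = 0.0366) and Egr3 by 1.49 (adjusted p = 0.0484), and all 19 log2 differences were above 0 with a median of 0.45. The Egr3 call was lost in 21 of 31 alternatives, 15 of them the exclusion of 1 library, and without the 4 lowest libraries its adjusted p was 0.161. The Egr2 call was lost in 11. In the wild-type libraries the median slope of the list was -0.08, with 3 members called positive. The summed level of that list overlapped widely, at 2624 to 9362 CPM in mast-high and 1850 to 9952 CPM in mast-low libraries.

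Among the 36 lower genes, Iigp1, an interferon-induced GTPase, had 2.21, 4.74 and 8.49 CPM in mast-high and 2.55, 14.8 and 41.9 CPM in mast-low libraries (log2 difference -2.62, SE 0.62, adjusted p = 0.0331). Ccr3, the eotaxin receptor of eosinophils, had 0.320, 0.794 and 1.41 CPM against 0.705, 4.71 and 14.3 CPM (-2.56, adjusted p = 0.0240), Sdc1, syndecan-1 of plasma cells, 1.71, 3.65 and 6.71 CPM against 3.90, 18.7 and 31.6 CPM (-2.25, adjusted p = 0.0480), and Ctss, cathepsin S of antigen-presenting cells, 13.9, 24.6 and 37.6 CPM against 30.7, 59.8 and 79.8 CPM (-1.21, adjusted p = 0.0383). Blnk, a B cell adaptor (-2.21), Gimap4 (-2.19), Pf4 of platelets (-1.84), Kmo (-1.23) and Btla, an inhibitory receptor of lymphocytes (-0.99), were lower too. In all of the 36 the classes overlapped. HSC KO 5, the mast-low library nearest the border, held the lowest mast-low value of Iigp1, Ccr3, Sdc1 and Ctss, each within the range of the mast-high libraries. The count depended on single libraries: it was 470 without HSC KO 5, 166 without HSC KO 3, 109 without global KO 4, 59 without EC KO 3, 21 without EC KO 5, 19 without global KO 3, 17 without EC KO 4, 8 without EC KO 2, 4 without HSC KO 2, 3 without HSC KO 1 and 1 without global KO 2. All 12 lower genes followed through the alternatives lost their call without global KO 2.

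Markers of other blood cells that a sort of LSK cells could hold were mostly below 0 without passing. Of 15 tested tissue macrophage markers 14 had a negative log2 difference, with a median of -1.91, and 1, Mertk, a receptor for uptake of dead cells, was lower (-3.40, adjusted p = 0.0440). C1qa, a complement subunit made by macrophages, had 0.253, 0.921 and 2.98 CPM in mast-high and 0.867, 7.96 and 40.4 CPM in mast-low libraries (-2.64, adjusted p = 0.138), and Cd5l 0.0632, 0.887 and 1.56 CPM against 0.542, 7.14 and 34.2 CPM (-2.58, adjusted p = 0.0670). The summed level of the list was 131 to 213 CPM in mast-high and 123 to 855 CPM in mast-low libraries. In the wild-type libraries 10 of its members had a called negative slope, C1qa among them (-1.10, adjusted p = 0.00700), which ranged from 0.628 CPM in HSC wt 4 to 14.3 CPM in Spred1 wt 1, the wild-type library of lowest score. Without the group covariate 12 members were lower, without the 4 lowest libraries 0, and without HSC KO 5 9. There were 10 lower in DESeq2, 13 with the TMM-scaled score and 15 with the continuous score. Over all genes, 501 (3.92%) were lower without the group covariate, 470 of 12850 without HSC KO 5 and 323 of 12780 in DESeq2. With the TMM-scaled score 882 of 12812 genes were lower, and with the continuous score 1621 of 13379.

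All 20 interferon-stimulated genes had negative log2 differences (median -1.21), and 1, Rtp4, was lower (-1.54, adjusted p = 0.0252). Without HSC KO 5 18 of the 20 were called lower, without global KO 4 7 (109 of 12831 over all genes), and without the 4 lowest libraries 0, with a median of -0.44. There were 12 lower in DESeq2, 16 with the TMM-scaled score, 19 with the continuous score and 6 without the group covariate. The list summed to 357 to 521 CPM in mast-high and to 383 to 1106 CPM in mast-low libraries. Erythroid markers had 10 of 11 values below 0 (median -1.25) with 0 called. There were 7 lower without HSC KO 5, 6 without the group covariate, 7 with the TMM-scaled score, 10 with the continuous score and 0 without the 4 lowest libraries. The numbers of all genes lower in these fits are given above. Hbb-bs, an adult beta-globin, had 0.231, 0.810 and 6.77 CPM against 0.108, 5.08 and 197 CPM (-5.39, adjusted p = 0.0723), and Slc4a1, the anion exchanger of red cells, 0, 0.261 and 1.44 CPM against 0, 2.37 and 25.3 CPM (-4.79, adjusted p = 0.0925). Hbb-bs was highest in HSC KO 1, at 197 CPM, and in EC KO 5 and EC KO 3, at 37.1 and 22.8 CPM. The other mast-low libraries had 0.108 to 8.76 CPM. In global KO the mast-low libraries had 2.93 to 8.76 CPM against 0.810 CPM in global KO 2, and EC KO 4 had 5.08 CPM against 0.231 CPM in EC KO 2. The reverse held for HSC KO 5, at 0.108 CPM against 2.53 CPM in HSC KO 2 and 0.741 CPM in HSC KO 3. Without the 4 lowest libraries Hbb-bs differed by -0.29 (adjusted p = 0.999).

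Dendritic cell and class II genes had 9 of 9 values below 0 (median -0.94, 0 called), among them Cd74 (-1.72, adjusted p = 0.0969) and H2-Eb1 (-1.91, adjusted p = 0.0860). Of these 9, 8 were lower without the group covariate and 6 without HSC KO 5. Without the 4 lowest libraries 0 were lower, as in the 13 knockout libraries alone. Monocyte markers had 10 of 10 below 0 (median -0.78, 0 called), with Irf8 at -1.22 (adjusted p = 0.0848). Monocyte markers counted 5 lower members without the group covariate, 5 in DESeq2, 6 with the score as a continuous covariate and 4 without HSC KO 3, and Irf8 was called in 6 alternatives. Over all genes, 166 of 12831 were lower without HSC KO 3, and the numbers for the other fits are given with the macrophage markers. Without the 4 lowest libraries 0 monocyte markers were lower, as in the 13 knockout libraries alone. Of 7 B and plasma cell markers Sdc1 was lower (median -1.64), and Jchain had 24.3, 76.0 and 305 CPM in mast-high against 86.9, 203 and 841 CPM in mast-low libraries (-2.12, adjusted p = 0.0847). Of 7 plasmacytoid dendritic cell markers Ly6d was lower (-2.37, adjusted p = 0.0473; list median -1.45), and of 9 eosinophil markers Ccr3 (list median -0.94). Megakaryocyte and platelet markers went both ways, with Itga2b (0.82) and Gp1ba (1.24) higher and Pf4 lower, none of them called without the 4 lowest libraries. None of 11 neutrophil (median 0.36), 7 T and NK cell (-0.64) or 9 endothelial and stromal markers (-0.34) was called. The part of these other cells in the comparison was not tested.

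**Figure D5:**
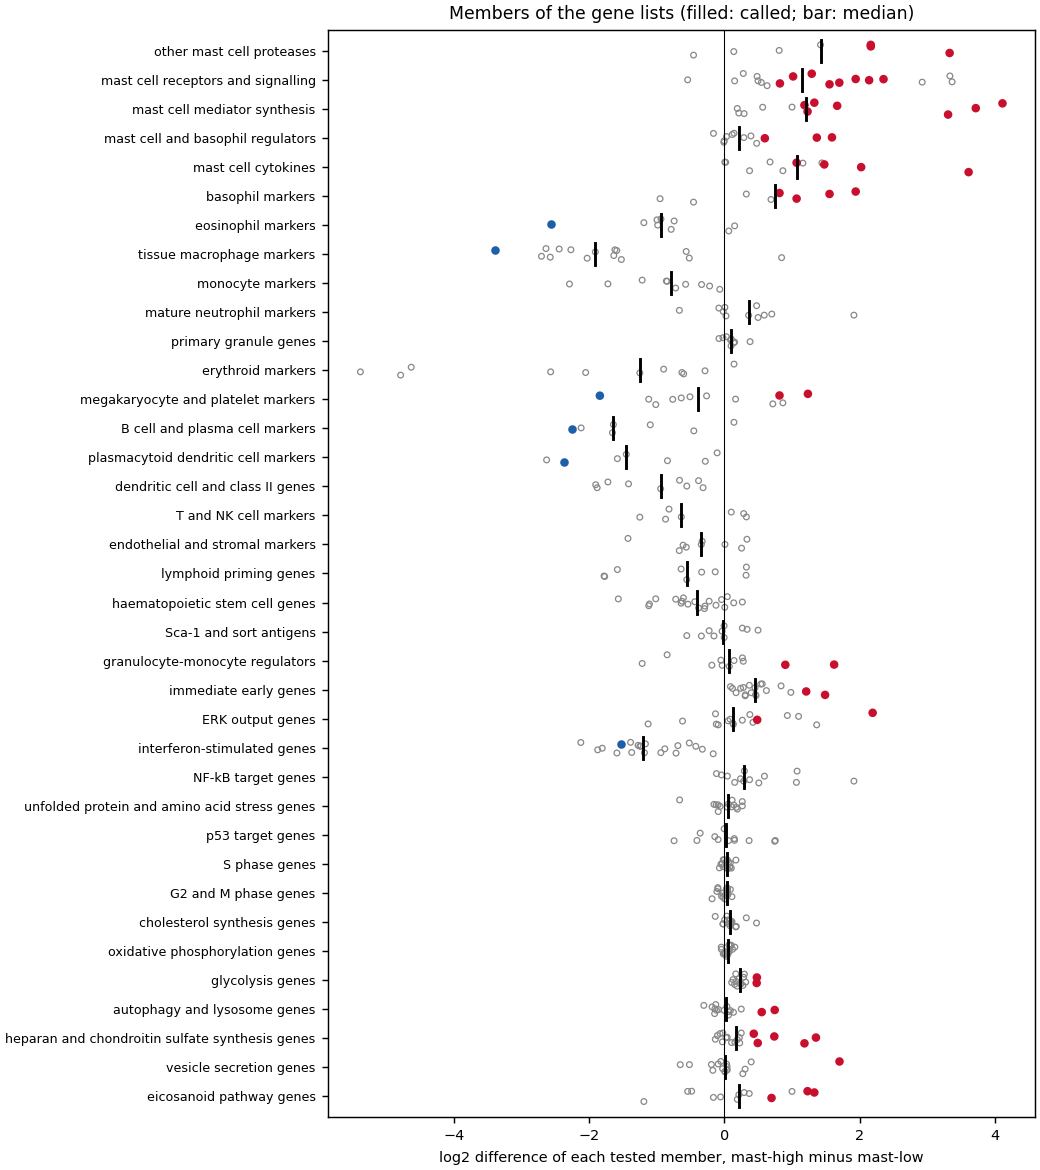
Log2 difference (mast-high minus mast-low) of each tested member of the gene lists other than the score, with called members filled and a bar at each list's median. Lists of mast cell genes lie to the right of 0, lists of macrophage, erythroid and interferon-stimulated genes to the left with few called members, and cell cycle and oxidative phosphorylation genes near 0.

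Lists of progenitor genes held no lower member with the group covariate, but did under other settings. Of 20 haematopoietic stem cell genes 16 had negative values (median -0.41) and 0 were called, with Vwf at -1.12 (adjusted p = 0.132). Of 9 lymphoid priming genes 0 were called (median -0.56), and Dntt, the terminal transferase of early lymphoid cells, had 48.6, 81.7 and 178 CPM in mast-high against 73.3, 422 and 705 CPM in mast-low libraries (-1.78, adjusted p = 0.135). Flt3, a receptor of multipotent and lymphoid progenitors, had 230, 308 and 447 CPM against 382, 582 and 683 CPM (-0.56, adjusted p = 0.170). Without the group covariate 5 lymphoid priming genes, 2 stem cell genes and 1 sort antigen were lower, against 3.92% of all genes. With the score as a continuous covariate 8, 10 and 3 were, against 1621 of 13379 genes. Without the 4 lowest libraries 0 members of these lists were. Dntt and Flt3 were each called in 6 alternatives. Ly6a, which codes for Sca-1, differed by 0.26 (adjusted p = 0.623), and of 10 sort antigens 0 were called (median -0.02). Of the 16 S phase and 20 G2 and M phase genes none was called, with medians of 0.04 and 0.03, nor of 21 oxidative phosphorylation genes (0.05), 15 genes of the unfolded protein response (0.06), 12 p53 targets (0.03), 13 NF-kB targets (0.30) and 9 primary granule genes (0.10).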

How the data were processed

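RNA-seq read counts per gene were analysed in 26 libraries of sorted LSK cells. The table of whole-number counts was used as deposited. Per the submitters' processing notes, the tools the authors used include edgeR (3.28.1), HTSeq (0.6.0), STAR (2.6.0) and bcl2fastq (2.18.0.12), with no role given. The genome build is mm10. Which annotation and strand setting were used for counting is not given in the sources used here, so counts of overlapping genes and of near-identical copies are uncertain. All 26 columns matched 1 sample each by title, 0 pairs of columns were identical, and replicate numbers follow the order of the samples and pair nothing.

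CPM values were computed from total counts. Classes came from the mast score (pseudocount 1), 9 libraries each. Of 24091 genes, 12780 passed filterByExpr (minimum count 10, by class). They were fitted with edgeR 4.0.16 (TMM, robust quasi-likelihood F-test, two-sided) on the 18 libraries with study group and class as terms, leaving 12 residual degrees of freedom (biological coefficient of variation 0.18). A gene was called at a Benjamini-Hochberg adjusted p under 0.05 over all tested genes. Fold changes are log2 differences, mast-high minus mast-low, with standard errors from the same fit. The fit was tested on simulated data. R 4.3.3, limma 3.58.1 and DESeq2 1.42.0 were also used.

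The libraries, gene lists and tests were chosen with earlier results of these data known. Lists are described by counts and medians only. The rule for named genes took the 5 score genes, the 15 largest rises and 15 largest falls among called genes whose higher class averaged 5 CPM or more, the 3 tested members of smallest p in each list, the 10 smallest p outside the mast cell lists, and Spred1. Named outside it, and chosen after their values were seen, were Ms4a2, Fcer1g, Hdc, Slc18a2, Slc6a4, Il13, Mcpt1, Mcpt2, Mcpt8, Prss34, Xylt1, Chst11, Papss2, Ids, Glb1, Cyp11a1, Socs2, C1qa, Ly6a, Pak6 and Xist.

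Each result was also computed with no group covariate, the score as a continuous covariate, DESeq2, RLE and upper-quartile normalization, library sizes without mast genes, no filter, a filter of 1 CPM in 9 libraries, a score from TMM-scaled CPM, a sex covariate, a log2 threshold of 1 and each library left out. Those added after seeing the data were the 4 lowest libraries left out (8 residual degrees of freedom), the 13 knockout libraries alone and the slope on the score in the 10 wild-type libraries (7 residual degrees of freedom).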

Additional observations from a re-analysis of the deposited data

Results flagged for a closer look

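In 21 of 186 sets of values the highest or lowest library lay apart from the rest of its set by Dixon's criterion. The sets were a gene in 1 class, the score in a class or study group, or total counts in a study group. All 21 were of a gene in 1 class. Chance meets the criterion in about 1 in 20 sets of normally distributed values. The CPM values were not transformed and can be skewed, so the number of flags is a description only. In mast-high libraries, Spred1 wt 3, the library of highest score, was above the others for Mcpt4 (468 CPM), Il13 (14.7 CPM), Ctsd (1026 CPM) and Slc4a1 (1.44 CPM). Spred1 wt 4 was above the others for Blnk (5.58 CPM), Ly6d (7.29 CPM) and Jchain (305 CPM), genes of B cells, early lymphoid and plasma cells, HSC wt 4 for Pf4 (6.18 CPM) and HSC KO 3 for H2-Eb1 (15 CPM).

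In mast-low libraries, HSC KO 5, the library nearest to the border of the class, was above the others for Tpsab1 (31.1 CPM) and Tph1 (108 CPM). Global KO 1 was above the others for the macrophage genes C1qa (40.4 CPM) and Cd5l (34.2 CPM), for Ctsd (586 CPM) and for Igfbp5 (2.68 CPM). HSC KO 1 was above the others for Hbb-bs (197 CPM), Pf4 (28.2 CPM), Jchain (841 CPM), Blnk (16.1 CPM) and Gimap4 (17.9 CPM), genes of red cells, platelets, plasma cells and lymphocytes, and below the others for Ptger3 (25.8 CPM).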

How the results depend on the processing

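Compared were 328 higher genes, 36 lower genes and 21 of 38 lists with a called member (higher, lower, lists). The 38 lists include that of the 5 score genes, which is counted among the 21. These genes chose the libraries, so the calls of that list are a description and support nothing. No called gene changed sign in any alternative fit of the class contrast or of the score over 26 libraries, and 1 of the 328 had a negative slope in the wild-type libraries. The counts were 605, 501 and 33 without the group covariate, 1212, 1621 and 35 with the score as a continuous covariate over 26 libraries, 749, 882 and 35 with a score from TMM-scaled CPM, where Spred1 wt 1 replaces HSC KO 5 in mast-low and gives a wild-type group both classes, and 77, 1 and 6 with a log2 threshold of 1. Lower genes numbered 323 in DESeq2 (higher 446), 76 with a sex covariate (higher 323) and 13 in the 13 knockout libraries alone (higher 271). Without the 4 lowest libraries there were 206 higher genes and 1 lower. RLE and upper-quartile normalization, library sizes without mast genes, fits without a filter or with at least 1 CPM in 9 libraries gave 303 to 347 higher and 32 to 45 lower genes. Higher genes made up 90.4% of calls with mast genes out of library sizes, 58.0% in DESeq2, 54.7% without the group covariate, 50.4% without HSC KO 5, 45.9% with the TMM-scaled score and 42.8% with the continuous score.

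With each library left out in turn, higher genes numbered 81 to 478, lower genes 1 to 470 and lists 8 to 29, with the lowest values without global KO 2 and the highest without HSC KO 5. Lists numbered 13 without HSC KO 1 and 13 without HSC KO 2. In the wild-type libraries positive slopes numbered 151 to 486 and negative slopes 12 to 314. Of 52 higher genes described, 14 were called under every alternative and 33 were not called without global KO 2. Of 12 lower genes described, 0 were called under every alternative, and each lost its call under 5 to 19 of them. Ms4a2 and Mcpt8, which were not called, changed sign: Ms4a2 was at -0.03 without global KO 2 (-0.03 to 0.99 over the exclusions of 1 library) and Mcpt8 at 0.09 without the 4 lowest libraries. The cause of these changes was not tested. No paired analysis was possible because the labels give each library its own number. With 4 mast-high libraries in the knockout groups, the contrast rests on 1 such library each in global KO and EC KO.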
